A study of Mus musculus with 4 samples.

Results

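Quinones and reactive oxygen species are cleared in cells by a set of reductases, thiol enzymes, transferases and metal-binding proteins, and 39 genes for such proteins and their regulators are described here. They were chosen by name: a gene was taken where a spot that is not a control carried one of the 39 names, and all 39 were found among 31704 genes on the array. RNA came from p53+/+ (WT) and p53-/- mouse embryonic fibroblasts (MEFs), which are connective tissue cells grown from mouse embryos. The samples were labeled as treated without or with doxorubicin. Each of these 4 conditions had 1 one-color Agilent array, and the 4 arrays were on 1 slide. The study made the arrays to look for targets of p53 that modulate myosin. The p53-/- cells lack p53 in every condition, and the number of embryos, their age, strain and the passage of the cultures are not given in the sources used here. Neither is the dose or the time of doxorubicin for the arrays. Every difference below therefore sets 1 array against 1 array. It has no replicate check and no p-value, and condition cannot be told apart from the position on the slide.

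Doxorubicin is an anthracycline that damages DNA and carries a quinone. Flavoenzymes such as cytochrome P450 reductase can pass a single electron to that quinone, which hands it on to oxygen and forms superoxide. Superoxide dismutases turn superoxide into hydrogen peroxide, and catalase, glutathione peroxidases and peroxiredoxins remove the peroxide with reducing power from glutathione and thioredoxin. Many of these genes hold antioxidant response elements (AREs), which the transcription factor NRF2 binds together with a small MAF protein, while KEAP1 marks NRF2 for degradation in unstressed cells.

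Levels are given as relative signals, that is the deposited background-subtracted signal of a probe divided by the 75th percentile of its array. These percentiles were signals of 2074 and 1819 in WT MEFs without and with doxorubicin and 1881 and 2421 in p53-/- MEFs. Where 4 relative signals are given below, each genotype has the untreated array first and the doxorubicin-treated array after it. A gene is said to have risen or fallen where it changed at least 2-fold (a log2 ratio of at least 1 or at most −1). All 39 genes were well above background on all 4 arrays, so all 39 gave a ratio in each comparison. For 253 other probes with repeat spots and signal well above background on all arrays, the median SD of the log2 signal between the spots of an array was 0.059, which makes 0.084 for a ratio of arrays and covers spots only. The least certain member was Slc7a11, whose signals of 66.4 in doxorubicin-treated WT and 132 in untreated p53-/- MEFs were under the brightest negative control of those arrays (77.5 and 250.1).

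The labels were checked with p53 itself and with p53 target genes. Relative signals of Trp53 were 0.592 and 1.89 in WT MEFs and 0.235 and 0.224 in p53-/- MEFs. Cdkn1a, which codes for the cell cycle inhibitor p21, had 13.8 and 58.3 in WT MEFs and 0.519 and 2.44 in p53-/- MEFs. Mdm2, which codes for the ubiquitin ligase of p53, had 25.2 and 101 in WT MEFs and 7.26 and 10.03 in p53-/- MEFs. All of these signals were lower on both p53-/- arrays than on both WT arrays. Trp53 and Mdm2 rose in WT MEFs (log2 ratios 1.68 and 1.998) and changed under 2-fold in p53-/- MEFs (−0.07 and 0.47), whereas Cdkn1a rose in both (2.08 and 2.23). The position of the Trp53 probe relative to the deleted part was not analysed here.

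All 12 fibroblast markers were well above background on every array, with Col1a2 (type I collagen) the most abundant by signal. Their summed relative signal was 846 and 686 in WT MEFs and 694.5 and 566 in p53-/- MEFs. With doxorubicin, 5 of the 12 fell in WT MEFs (41.7%, against 10.4% of all genes) and 3 in p53-/- MEFs (25%, against 6.89%). Among them, Lum (lumican) had a log2 ratio of −4.81 in WT MEFs and of −2.34 in the p53-/- cells, and Pdgfra, a receptor for platelet-derived growth factor, −3.36 and −0.89. Of 8 leukocyte markers, 6, 7, 6 and 5 were well above background in the array order used for the levels, and the summed relative signal was 15.9 and 20.04 in WT MEFs and 17.9 and 14.7 in p53-/- MEFs, mostly from Itgam. Also well above background on all 4 arrays were Csf1r (signals of 2739 to 5530.0), Cd3e (701 to 998), Adgre1 (275 to 583) and the defining marker Ptprc (CD45), at 65.3 to 104. On every array, however, the Ptprc signal was under the brightest negative control (108, 77.5, 250.1 and 120). Of 6 epithelial markers, 2, 4, 2 and 3 were well above background, and their sum was 5.59 and 10.1 in WT MEFs and 5.28 and 17.8 in p53-/- MEFs, mostly from Krt18, with Epcam and Cldn4 not well above background on any array. Of 5 endothelial markers, 2, 3, 2 and 2 were well above background, Kdr and Pecam1 (signals of 118 to 207) on all 4 arrays and Tek on 1, and their sum was 3.68, 4.22, 2.93 and 2.34, mostly from Kdr, with Cdh5 and Tie1 not well above background on any array. In untreated p53-/- MEFs the Pecam1 signal was under the brightest negative control (250.1). Of 5 erythroid markers, 0, 3, 0 and 1 were well above background, so their sums of 0.0491 and 0.0772 on the untreated arrays hold background signals only. On the treated arrays the sums were 0.499 in WT MEFs, led by Hba-a1, and 0.183 in p53-/- MEFs, led by Alas2. Of 4 hepatocyte markers, Afp alone was well above background, and the sum was 0.136, 0.152, 0.349 and 0.393, mostly from Afp, with the defining marker Alb not well above background on any array. The part of these shifts in the values below was not tested. In RNA from whole cultures, fewer cells of a type and less RNA per cell cannot be told apart.

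With doxorubicin, 10 of the 39 genes rose in WT MEFs (25.6%) and 2 fell (5.13%). Among all 17513 genes measured in that comparison, 11.0% rose and 10.4% fell. The genes that rose were Nqo1 and Cbr3, Gclc and Gss, Txnrd1 and Srxn1, Gpx1 and Gpx3, Gsta4 and Hmox1, and those that fell were Slc7a11 and Sod3. In p53-/- MEFs, 5 of the 39 rose (12.8%), which were Nqo1, Cbr3, Gpx1, Gsta4 and Gstm1, and Gpx7 alone fell (2.56%). There, 9.24% of 16950 genes rose and 6.89% fell. How the share of the 39 that rose compared with that of all genes depended on the setting. It was 12.8% against 6.8% with normexp background correction, and 13.2% against 6.16% with only signals above the brightest negative control. The share was below that of all genes when dim probes were compared too (12.8% against 14.9%) and with scaling to the array median (5.13% against 5.63%). The median log2 ratio of the 39 was 0.30 in WT MEFs, where that of all genes was 0.009, and 0.45 in p53-/- MEFs, where that of all genes was 0.001. Scaled to the array median instead, the median of all genes moved to −0.27 in WT and −0.30 in p53-/- MEFs and that of the 39 to 0.02 and 0.15, and the share of higher genes among all that passed 2-fold went from 51.4% to 32.1% in WT and from 57.3% to 31.3% in p53-/- MEFs. Ratios above 0 were found for 25 of the 39 in WT (64.1%, against 50.7% of all genes) and 29 in p53-/- MEFs (74.4%, against 50.1%).

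**Figure D1:**
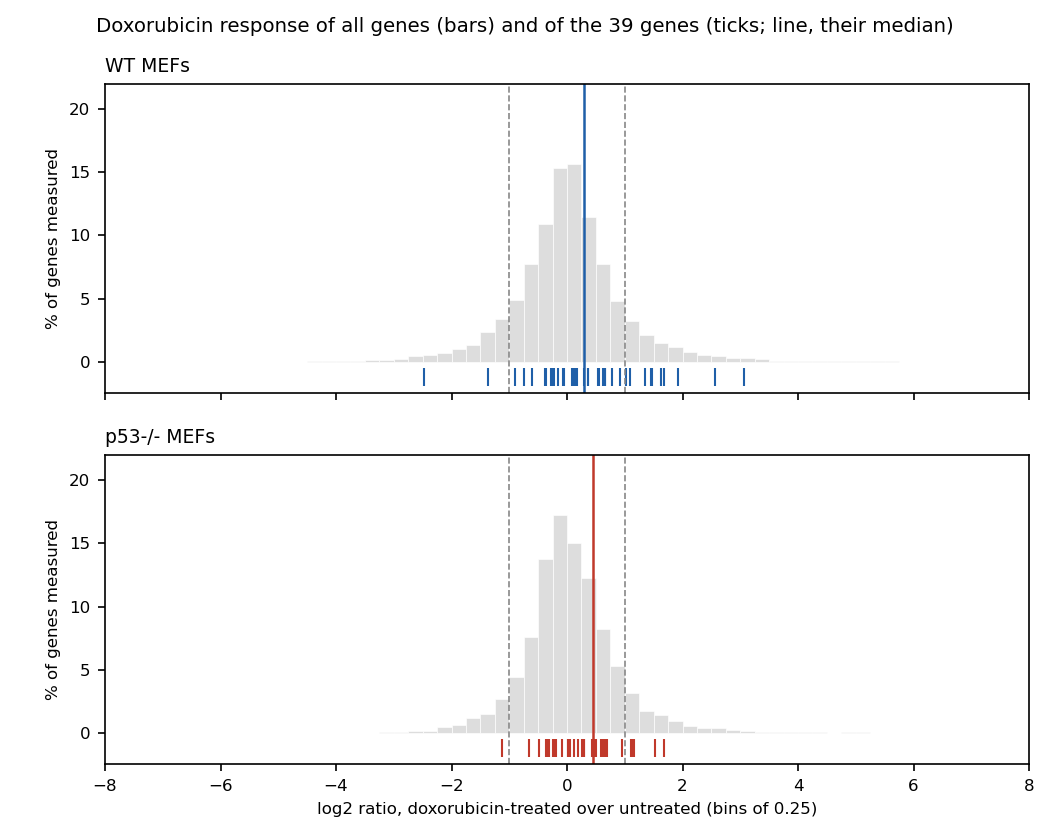
Distribution of the doxorubicin log2 ratio over all genes measured (grey bars, percent of genes per bin of 0.25 on the y axis) with the 39 antioxidant and quinone-detoxifying genes as ticks, for WT (upper) and p53-/- MEFs (lower). Dashed lines mark 2-fold and the solid line the median of the 39, at 0.30 in WT and 0.45 in p53-/- MEFs. In WT MEFs the ticks reach from −2.47 to 3.06 and in p53-/- MEFs from −1.12 to 1.68.

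Set side by side, 4 genes rose in both genotypes (Nqo1, Cbr3, Gpx1 and Gsta4), 6 rose in WT MEFs and were under 2-fold in p53-/- MEFs (Gclc, Gss, Txnrd1, Srxn1, Gpx3 and Hmox1), and Gstm1 rose in p53-/- MEFs and was under 2-fold in WT MEFs. With scaling to array medians, Nqo1 and Gsta4 alone rose in both. The counts of the main scaling are 10.3%, 15.4% and 2.56% of the 39, beside 3.97%, 6.56% and 4.78% of the 16513 genes measured in both comparisons. None fell in both (3.32% of all genes did), 2 fell in WT MEFs alone (5.13%, against 7.33%) and 1 in p53-/- MEFs alone (2.56%, against 3.64%). The doxorubicin ratios of the genotypes were not tested against each other, as there was 1 array per condition. Of the 39, 25 were under 2-fold in both genotypes (64.1%, against 70.9% of all genes) and 13 were under 1.5-fold in both (33.3%, against 45.8%).

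The counts of the genotypes depended on the threshold. At 1.5-fold, 15 of the 39 were higher with doxorubicin in WT MEFs (38.5%, against 20.6% of all genes) and 14 in p53-/- MEFs (35.9%, against 19.4%), so the genotypes were nearly level. At the same threshold, 5 were lower in WT MEFs (12.8%, against 20.0%) and 2 in p53-/- MEFs (5.13%, against 15.9%). At 3-fold, 5 were higher in WT MEFs (12.8%, against 5.07%) and 1 in p53-/- MEFs (2.56%, against 3.82%), while 1 was lower in WT MEFs (2.56%, against 4.19%) and 0 in p53-/- MEFs (against 2.25%).

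**Figure D2:**
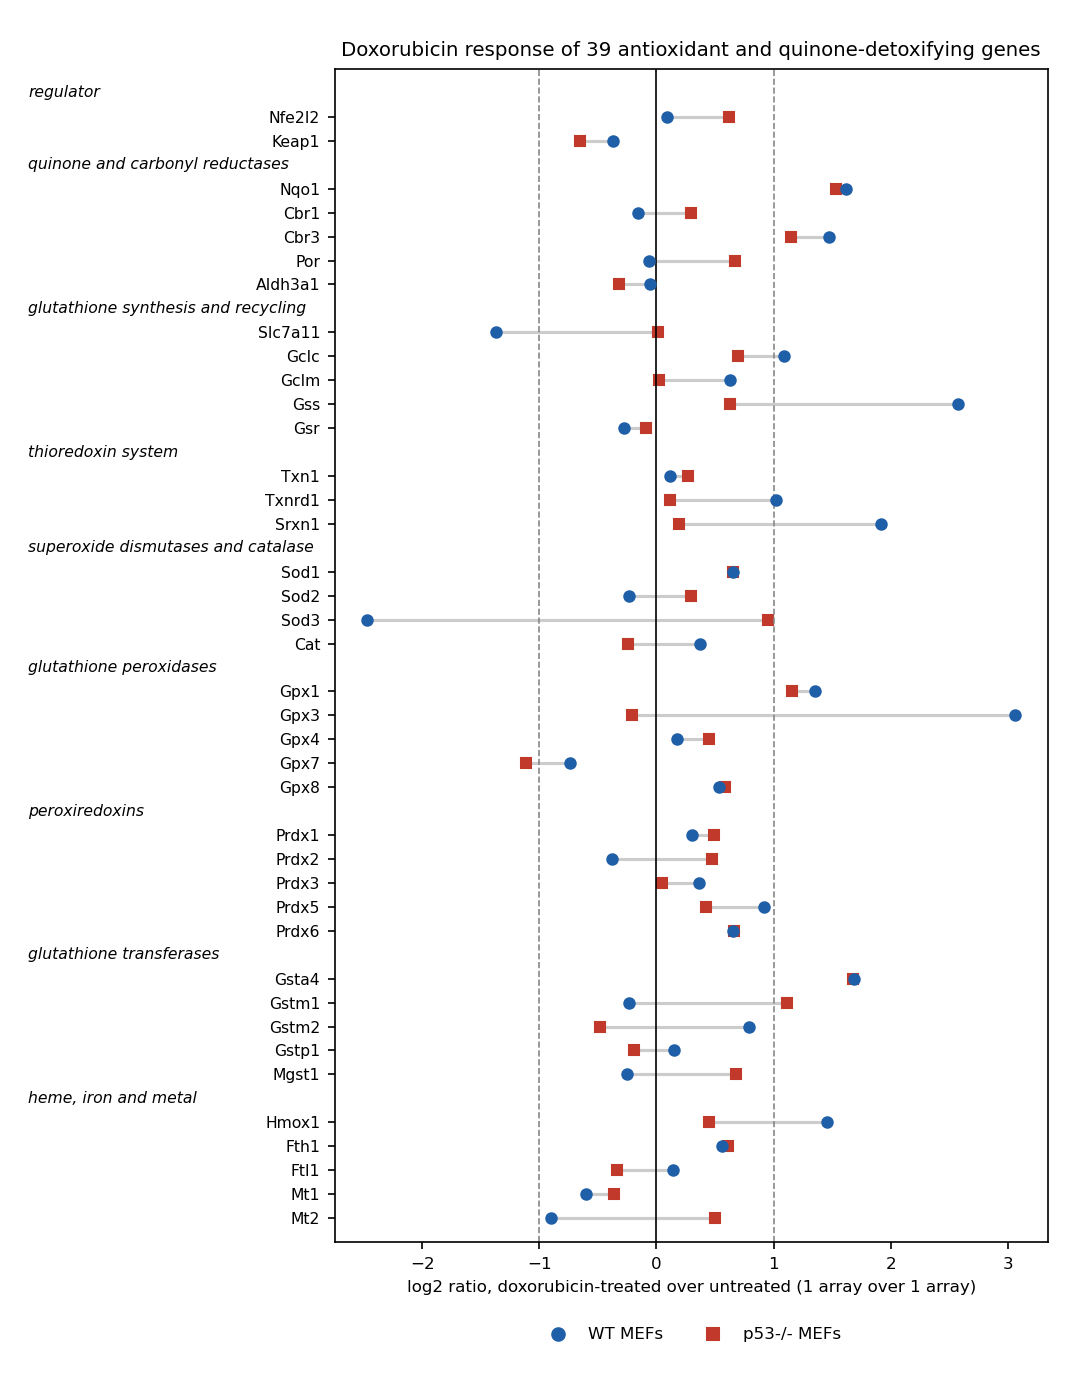
Doxorubicin log2 ratio (x axis, doxorubicin-treated over untreated, 1 array over 1 array) of each of the 39 genes in WT MEFs (circles) and p53-/- MEFs (squares), ordered by role, with dashed lines at 2-fold. Circles and squares nearly coincide for Nqo1, Sod1, Gpx8, Prdx6, Gsta4 and Fth1 and lie farthest apart for Sod3 and Gpx3.

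The regulators stayed under 2-fold. Nfe2l2, the gene for NRF2, had relative signals of 6.82 and 7.26 in WT MEFs and 3.43 and 5.25 in p53-/- MEFs, and log2 ratios of 0.09 and 0.62. Keap1, the gene for its inhibitor, had 5.18 and 4.00 in WT MEFs and 4.59 and 2.92 in p53-/- MEFs, with log2 ratios of −0.37 and −0.66. Both had lower signals in p53-/- than in WT MEFs without doxorubicin, by −0.99 and −0.17 on the log2 scale, which is under 2-fold.

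Of the quinone and carbonyl reductases, Nqo1 and Cbr3 rose in both genotypes. Nqo1 (probe at chr8:109912440-109912499, mm9) codes for the quinone reductase that passes electrons to quinones in pairs and so forms no semiquinone. Its relative signals were 0.459 and 1.41 in WT MEFs and 0.254 and 0.733 in p53-/- MEFs, which is 3.08-fold and 2.89-fold higher with doxorubicin. Cbr3 (chr16:93691120-93691179, mm9), a carbonyl reductase, had 2.42 and 6.72 in WT MEFs and 0.879 and 1.95 in p53-/- MEFs, or 2.78-fold and 2.21-fold higher. For both genes, the treated p53-/- array was below the treated WT array. Scaled to the array median, the p53-/- log2 ratio of Cbr3 was 0.85. Cbr1, the neighboring carbonyl reductase that is known to reduce doxorubicin to its alcohol, did not share this pattern, with 3.36 and 3.02 in WT MEFs and 2.84 and 3.48 in p53-/- MEFs and log2 ratios of −0.16 and 0.29. Por, the cytochrome P450 reductase, had 6.74 and 6.45 in WT MEFs and 6.90 and 11.0 in p53-/- MEFs (log2 ratios −0.06 and 0.67). Aldh3a1, an aldehyde dehydrogenase, had 1.63 and 1.57 in WT MEFs and 1.55 and 1.24 in p53-/- MEFs (−0.06 and −0.32). A second Aldh3a1 probe passed the background flag on 1 array, that of doxorubicin-treated WT MEFs. It was at least 1.63-fold higher there than without doxorubicin, taking as the bound the lowest signal called well above background on the untreated array. Averaging both probes therefore takes in signals that were not well above background, and the log2 values it gave for Aldh3a1 (1.35 and 1.12) are not measured changes, although that setting counts the gene among 11 that rose in WT (28.2%, against 11% of all genes) and 6 in p53-/- MEFs (15.4%, against 9.07%).

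In glutathione synthesis, Gss rose most, and it did so in WT MEFs. Gss (chr2:155389432-155390531, mm9) codes for glutathione synthetase, the last enzyme of the pathway. Its relative signals were 0.919 and 5.46 in WT MEFs and 0.559 and 0.863 in p53-/- MEFs, so the treated WT array stood 5.94-fold above the untreated one, and the p53-/- ratio was 1.54-fold. In WT MEFs, 298 of 17513 genes had a larger ratio. Gclc, the catalytic subunit of glutamate-cysteine ligase, which carries out the rate-limiting step, had 2.81 and 5.996 in WT MEFs and 3.29 and 5.34 in p53-/- MEFs. It passed 2-fold in WT (2.13-fold) and not in p53-/- MEFs (1.62-fold), but the ratios differed by 0.39 on the log2 scale only, and its WT log2 ratio was 0.82 when arrays were scaled to their medians. Its modifier subunit Gclm had 0.268 and 0.414 in WT MEFs and 0.318 and 0.324 in p53-/- MEFs (log2 ratios 0.63 and 0.03). Slc7a11, the cystine importer that feeds the pathway, fell in WT MEFs, with 0.0941 and 0.0365 in WT MEFs and 0.0701 and 0.0708 in p53-/- MEFs and log2 ratios of −1.37 and 0.02. These signals are near background, as given above, and the WT log2 ratio was −0.84 with normexp background correction. Gsr, glutathione reductase, which returns oxidized glutathione to its reduced form, had 3.27 and 2.70 in WT MEFs and 4.23 and 3.97 in p53-/- MEFs (log2 ratios −0.28 and −0.09).

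In the thioredoxin system, Srxn1 and Txnrd1 rose in WT MEFs and their p53-/- ratios were near 1. Srxn1 (chr2:151937009-151937068, mm9) codes for sulfiredoxin, which repairs overoxidized peroxiredoxins. Its relative signals were 4.79 and 18.0 in WT MEFs and 3.04 and 3.48 in p53-/- MEFs, or 3.77-fold in WT and 1.15-fold in p53-/- MEFs. Txnrd1 (chr10:82360230-82360289, mm9), cytosolic thioredoxin reductase, had 11.9 and 24.1 in WT MEFs and 12.6 and 13.7 in p53-/- MEFs, or 2.03-fold and 1.09-fold, so its WT value is just past the threshold, and its log2 ratio was 0.75 when arrays were scaled to their medians. The untreated arrays were nearly level for Txnrd1 (log2 p53-/- over WT 0.09). Txn1, thioredoxin itself, had 27.4 and 29.8 in WT MEFs and 28.1 and 33.8 in p53-/- MEFs, with log2 ratios of 0.12 and 0.27.

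Promoter sequences were searched for the ARE core (TGACNNNGC) and for the AP-1 motif TGANTCA, the letters of which can overlap, on both strands of the 250 bases before the start of each gene (RefSeq, GRCm38.p6). Promoters of 32 of the 39 genes were at hand. The ARE core was present in 7 of them (21.9%), those of Nfe2l2, Gclm, Txnrd1, Sod1, Prdx1, Mgst1 and Mt2, and in 11.5% of 27025 genes. AP-1 was present in 4 (12.5%), those of Srxn1, Prdx1, Gstp1 and Mt2, and in 7.82% of all. The p53 consensus (adjoining decamers with no spacer) was present in 0 of the 32 and in 0.0111% of all. Of the 12 genes past 2-fold in WT MEFs, Srxn1 and Txnrd1 held a match, and 4 (Gclc, Gsta4, Hmox1 and Sod3) had no promoter to search. Prdx1 and Mt2, which were under 2-fold, were the members with both motifs. These stretches are shown with the matches in capitals, on the strand of the gene.
Srxn1: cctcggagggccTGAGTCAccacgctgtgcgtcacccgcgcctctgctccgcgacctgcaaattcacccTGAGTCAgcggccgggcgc
Txnrd1: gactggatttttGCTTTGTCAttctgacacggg
Prdx1: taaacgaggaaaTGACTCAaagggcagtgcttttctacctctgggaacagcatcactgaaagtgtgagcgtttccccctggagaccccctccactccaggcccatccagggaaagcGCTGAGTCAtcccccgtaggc
Mt2: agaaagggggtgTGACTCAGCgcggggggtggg
They lie at chr2:152105410-152105497, strand + (Srxn1), chr10:82859102-82859134, strand + (Txnrd1), chr4:116685350-116685486, strand + (Prdx1) and chr8:94172527-94172559, strand + (Mt2). Srxn1 held AP-1 at 2 places, and in Mt2 and Prdx1 the ARE core and an AP-1 motif share bases. A match is a run of letters and was not tested for binding. Bases beyond these 250 were not searched, so a gene without a match may hold the motif elsewhere. Log2 ratios of the 4 genes with doxorubicin were 1.92, 1.02, 0.30 and −0.90 in WT and 0.20, 0.12, 0.49 and 0.50 in p53-/- MEFs, in the same order.

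Among superoxide dismutases and catalase, Sod3 moved in opposite directions in the genotypes. Sod3 (chr5:52760685-52760744, mm9) codes for the extracellular superoxide dismutase. Its relative signals were 2.19 and 0.397 in WT MEFs and 0.799 and 1.55 in p53-/- MEFs, a 5.54-fold fall in WT MEFs beside a 1.94-fold ratio in p53-/- MEFs, which is just under the threshold. Without doxorubicin it was 2.75-fold lower in p53-/- than in WT MEFs, and with doxorubicin 3.91-fold higher. The other enzymes of the group stayed under 2-fold. Sod1, the cytosolic copper-zinc enzyme, had 47.4 and 74.6 in WT MEFs and 41.2 and 64.8 in p53-/- MEFs, the same log2 ratio of 0.65 in both genotypes. Sod2, the mitochondrial manganese enzyme, had 11.6 and 9.87 in WT MEFs and 10.6 and 13.0 in p53-/- MEFs (log2 ratios −0.23 and 0.30). Cat, catalase, had 1.73 and 2.23 in WT MEFs and 2.04 and 1.72 in p53-/- MEFs (0.37 and −0.24), and a dimmer probe of it gave 0.17 and −0.76.

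Of the glutathione peroxidases, Gpx3 showed the highest doxorubicin ratio of the 39 genes. Gpx3 (chr11:54723436-54723495, mm9) codes for the secreted enzyme. Its relative signals were 1.86 and 15.5 in WT MEFs and 1.59 and 1.37 in p53-/- MEFs: 3 arrays lay close together and the treated WT array stood 8.35-fold above its untreated control. In p53-/- MEFs the log2 ratio was −0.21. In WT MEFs, 173 of 17513 genes had a larger ratio. Gpx1 (chr9:108242276-108242335, mm9), the abundant cytosolic and mitochondrial enzyme, rose in both genotypes, with 29.4 and 75.3 in WT MEFs and 24.5 and 54.5 in p53-/- MEFs, or 2.56-fold and 2.23-fold, although the p53-/- log2 ratio was 0.86 when arrays were scaled to their medians. Gpx7, a peroxidase of the endoplasmic reticulum, fell in p53-/- MEFs, with 1.35 and 0.810 in WT MEFs and 0.758 and 0.349 in p53-/- MEFs and log2 ratios of −0.74 and −1.12. In each genotype the treated array was the lower one. Gpx8, also of the endoplasmic reticulum, had 15.1 and 21.9 in WT MEFs and 14.2 and 21.4 in p53-/- MEFs (0.54 and 0.59). Gpx4, which reduces lipid peroxides, had 19.0 and 21.6 in WT MEFs and 20.01 and 27.4 in p53-/- MEFs (0.18 and 0.45).

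None of the 5 peroxiredoxins, thiol enzymes that reduce peroxides, passed 2-fold in either genotype. The highest ratio was that of Prdx5, with 8.63 and 16.3 in WT MEFs and 9.81 and 13.2 in p53-/- MEFs (log2 ratios 0.92 and 0.43). Prdx6, which uses glutathione, had 25.9 and 40.8 in WT MEFs and 21.4 and 33.9 in p53-/- MEFs (0.66 and 0.67), although its 4 probes ranged from 0.27 to 0.90 in WT MEFs and from 0.23 to 0.67 in p53-/- MEFs. The lowest ratios came from a dim probe, whose untreated signals (75.4 in WT, 87.6 in p53-/- MEFs) were under the brightest negative controls (108 and 250.1). Its other probes gave 0.66 to 0.90 in WT and 0.55 to 0.67 in p53-/- MEFs. The mitochondrial Prdx3 had 3.31 and 4.25 in WT MEFs and 3.34 and 3.45 in p53-/- MEFs (0.36 and 0.05). For the cytosolic Prdx1, levels were 24.6 and 30.3 in WT MEFs and 20.9 and 29.3 in p53-/- MEFs (0.30 and 0.49). For Prdx2 they were 15.7 and 12.04 in WT MEFs and 11.9 and 16.6 in p53-/- MEFs, and its ratios had opposite signs (−0.38 and 0.48) within 2-fold. In p53-/- MEFs all 5 ratios were above 0, with a median of 0.48, although that of Prdx3 was −0.25 when arrays were scaled to their medians. In WT MEFs the median was 0.36.

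Among the glutathione transferases, which join glutathione to electrophiles, Gsta4 rose to the same degree in both genotypes. Gsta4 (chr9:78046172-78047344, mm9), the form that prefers the lipid aldehyde 4-hydroxynonenal, had 0.284 and 0.914 in WT MEFs and 0.144 and 0.460 in p53-/- MEFs, or 3.22-fold and 3.20-fold. Its signal of 271 in untreated p53-/- MEFs was only just above the brightest negative control of that array (250.1). Both p53-/- levels were close to a factor of 2 below the WT levels (log2 −0.98 without and −0.99 with doxorubicin). Gstm1 rose in p53-/- MEFs, with 3.88 and 3.29 in WT MEFs and 2.44 and 5.28 in p53-/- MEFs and log2 ratios of −0.24 and 1.11. Its other probe gave 0.18 and 1.08, the p53-/- value was 0.81 when arrays were scaled to their medians, and the files place the brighter probe on chromosome 5 and the other on chromosome 3. Gstm2 had 10.8 and 18.6 in WT MEFs and 6.38 and 4.57 in p53-/- MEFs (0.79 and −0.48), and its 3 probes gave 0.79 to 0.91 in WT and −0.49 to −0.43 in p53-/- MEFs. Gstp1 had 6.78 and 7.51 in WT MEFs and 6.06 and 5.30 in p53-/- MEFs (0.15 and −0.19), and the membrane-bound Mgst1 had 3.03 and 2.55 in WT MEFs and 1.42 and 2.28 in p53-/- MEFs (−0.25 and 0.68). The mu class holds several close copies, as does the pi class, so a probe may also have measured a relative of the same class.

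For heme, iron and metal binding, Hmox1 rose in WT MEFs. Hmox1 (chr8:77624207-77624266, mm9) codes for heme oxygenase-1, which breaks down heme. Its relative signals were 7.34 and 20.1 in WT MEFs and 5.63 and 7.66 in p53-/- MEFs, or 2.74-fold and 1.36-fold, and its other probe gave log2 ratios of 1.26 and 0.38. Fth1 and Ftl1, the heavy and light chains of ferritin, which stores iron, stayed under 2-fold. Fth1 had 65.4 and 96.5 in WT MEFs and 47.0 and 71.8 in p53-/- MEFs (0.56 and 0.61), and Ftl1 had 169 and 186 in WT MEFs and 167 and 132 in p53-/- MEFs (0.14 and −0.34). The neighboring metallothionein genes Mt1 and Mt2 code for small cysteine-rich proteins that bind zinc and copper. Both had lower signals with doxorubicin in WT MEFs, with log2 ratios of −0.60 (Mt1) and −0.90 (Mt2). In p53-/- MEFs the ratios were −0.36 and 0.50. Mt1 levels were 36.5 and 24.1 in WT MEFs and 24.7 and 19.2 in p53-/- MEFs, and Mt2 levels 20.6 and 11.0 in WT MEFs and 11.7 and 16.5 in p53-/- MEFs.

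**Figure D3:**
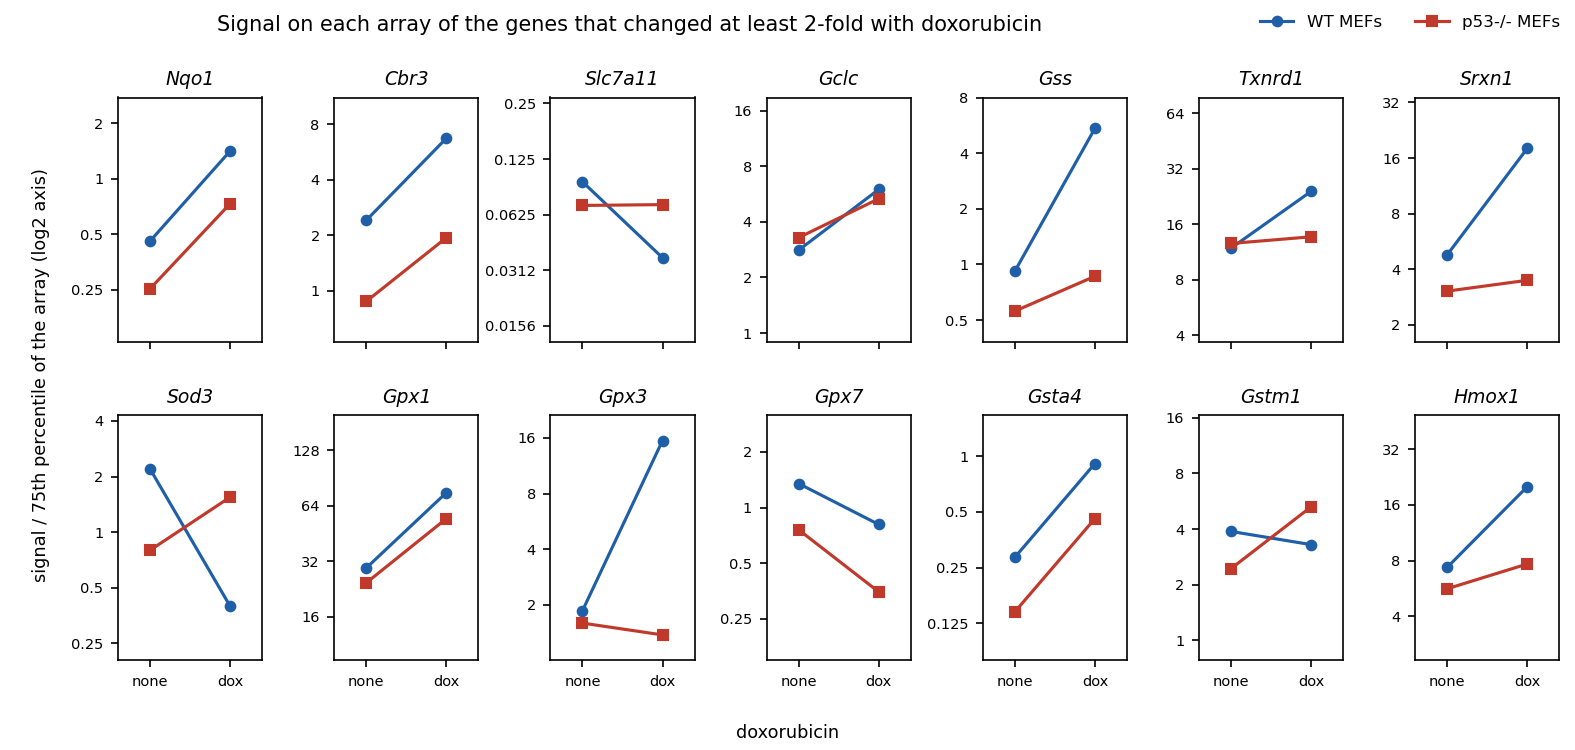
Relative signal (y axis, log2 scale, the same span of the scale in each panel) of the 14 genes that changed at least 2-fold with doxorubicin in either genotype, without (none) and with doxorubicin (dox), in WT (circles) and p53-/- MEFs (squares), 1 array per point. The lines of WT and p53-/- MEFs run side by side for Nqo1, Cbr3, Gpx1, Gsta4 and Gpx7, cross for Sod3, Gstm1, Slc7a11, Gclc and Txnrd1, and open toward doxorubicin for Gss, Srxn1, Gpx3 and Hmox1.

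The genotypes were also compared at each treatment. Without doxorubicin, none of the 39 genes was at least 2-fold higher in p53-/- than in WT MEFs (2.15% of all 17287 genes were), and 3 were at least 2-fold lower (7.69%, against 2.61% of all genes). These were Cbr3 (log2 −1.46), Sod3 (−1.46) and Mgst1 (−1.09), and Nfe2l2 (−0.99) and Gsta4 (−0.98) lay just inside the threshold. Only 10 of the 39 had a ratio above 0 (25.6%, against 49.7% of all genes), and the median was −0.24. Under the 6 other settings that could change it, the median lay between −0.29 and −0.18. At 1.5-fold, 12 genes were lower in untreated p53-/- MEFs (30.8%, against 8.68% of all genes), and at 3-fold 0 were (against 0.712%). With doxorubicin, 7 genes were at least 2-fold lower in p53-/- MEFs (17.9%, against 10.3% of all 17888 genes). These were Gpx3 (−3.50), Gss (−2.66), Srxn1 (−2.37), Gstm2 (−2.03), Cbr3 (−1.79), Hmox1 (−1.39) and Gpx7 (−1.21). Sod3 (1.97) was the only one at least 2-fold higher (2.56%, against 11.9% of all genes), and at 1.5-fold 4 genes were higher (10.3%, against 22.8%). The median was −0.33, or −0.16 when arrays were scaled to the reference genes, which moved the median of all genes to 0.17 and the share of higher genes among those past 2-fold from 53.6% to 65.1%. Here 11 of the 39 had a ratio above 0 (28.2%, against 50% of all genes). Cbr3 was the one gene at least 2-fold lower at both treatments (2.56%, against 1.34% of all genes), and Gsta4 joined it when arrays were scaled to their medians. These comparisons share arrays with those of doxorubicin, so they do not add separate evidence.

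**Figure D4:**
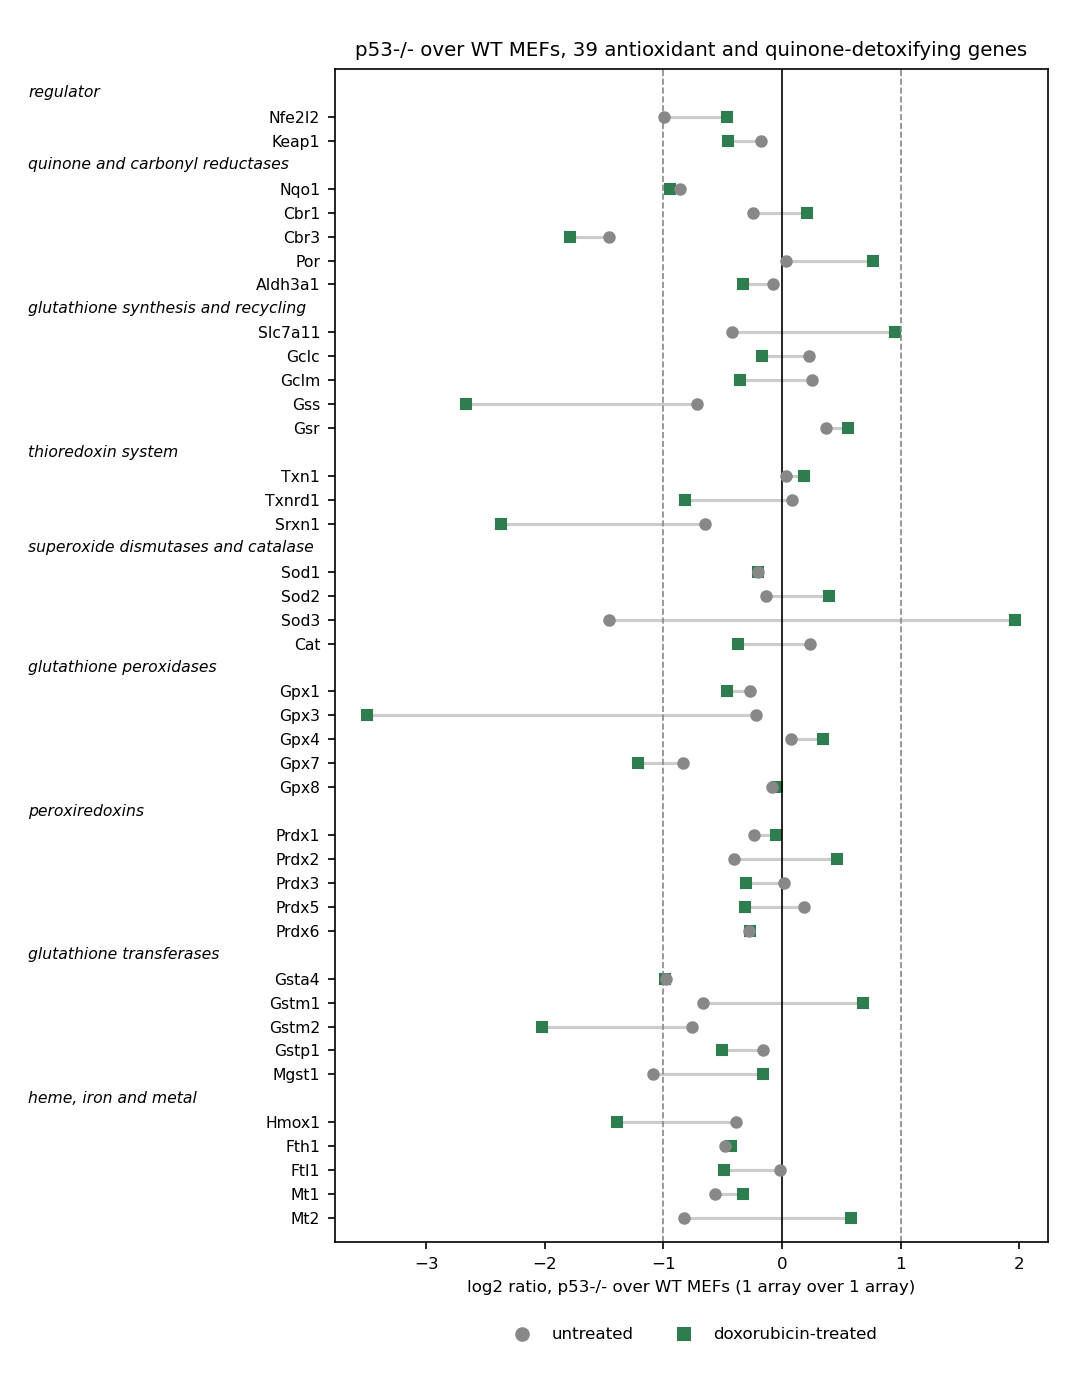
Log2 ratio of p53-/- over WT MEFs (x axis, 1 array over 1 array) of each of the 39 genes without doxorubicin (circles) and with doxorubicin (squares), ordered by role, with dashed lines at 2-fold. Most points lie below 0, and with doxorubicin Gpx3 lies lowest at −3.50 and Sod3 highest at 1.97.

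The difference between the doxorubicin log2 ratios (WT minus p53-/-) was at least 1 for 5 of the 39 genes (12.8%, against 8.37% of 16513 genes) and at most −1 for 4 (10.3%, against 9.86%). The first were Gpx3 (3.27), Gss (1.94), Srxn1 (1.72), Gstm2 (1.27) and Hmox1 (1.01), and the others Sod3 (−3.42), Mt2 (−1.40), Slc7a11 (−1.38) and Gstm1 (−1.35). Hmox1 fell short of 1 with quantile normalization (0.98), scaling to the reference genes (0.91) and averaged probes (0.94). Slc7a11 was at −0.92 with normexp and was not measured when signals had to exceed the brightest negative control, and Mgst1 reached −1.03 with scaling to the reference genes. Both shares were near those of all genes, and the median difference of the 39 was 0.009 (0.013 for all genes). Txnrd1 (0.90) and Gclc (0.39), which passed 2-fold in WT MEFs and not in p53-/- MEFs, were not among them.

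Further genes of the same pathways were taken from lists by name. Their counts stand beside 11.0% of all genes that rose and 10.4% that fell in WT MEFs, and 9.24% and 6.89% in p53-/- MEFs, and leave out genes that had only a bound. Of 13 measured partners and regulators of NRF2, 1 rose in WT MEFs (7.69%) and 0 fell, and of 12 measured in p53-/- MEFs, 3 rose (25%) and 2 fell (16.7%), with medians of 0.02 and −0.02. Mafk, a small MAF partner of NRF2, rose in both, with 1.19 and 4.50 in WT MEFs and 1.17 and 3.68 in p53-/- MEFs. Maff, another small MAF, had 1.70 and 3.38 in WT MEFs and 1.85 and 9.18 in p53-/- MEFs and log2 ratios of 0.99 and 2.31. Sqstm1 (p62), which binds KEAP1, had log2 ratios of 0.41 and 1.10, and Gsk3b, a kinase that promotes NRF2 degradation, −0.49 and −1.41.

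Of 24 further genes that are commonly described as NRF2 targets, 7 rose in WT MEFs (29.2%) and 0 fell, and 3 rose (12.5%) and 1 fell (4.17%) in p53-/- MEFs, where the share that rose was near that of all genes. Aox1, an aldehyde oxidase, had 0.475 and 1.75 in WT MEFs and 0.262 and 0.833 in p53-/- MEFs. The aldo-keto reductases Akr1b8 (log2 ratios 1.58 and 1.02) and Akr1b3 (1.36 and 1.27) rose in both genotypes, and G6pdx, which feeds the pentose phosphate pathway that supplies NADPH, rose in WT MEFs (1.38 and 0.59). The medians of the list were 0.11 in WT and 0.14 in p53-/- MEFs.

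Of 16 further glutathione transferases, 2 rose (12.5%) and 1 fell (6.25%) in WT MEFs, and 2 rose (12.5%) and 0 fell in p53-/- MEFs, with medians of 0.47 and 0.27. Mgst2 had 0.101 and 0.872 in WT MEFs and 0.0967 and 0.181 in p53-/- MEFs, and Gstt1 had 0.875 and 5.46 in WT MEFs and 0.944 and 1.04 in p53-/- MEFs, so both stood out on the treated WT array (log2 3.11 and 2.64, against 0.90 and 0.14). For Mgst2, the signal of 182 without doxorubicin in p53-/- MEFs was under the brightest negative control of that array (250.1). Gsto2 had its highest level on the treated p53-/- array, with 0.183 and 0.366 in WT MEFs and 0.102 and 0.652 in p53-/- MEFs. The genes that rose in p53-/- MEFs were Gsto2 and Gstt2, whose signals of 192 and 103 without doxorubicin were under the brightest negative control of that array (250.1). Gstm5 had −1.10 and 0.10. Gsta2, not well above background without doxorubicin, was at least 2.78-fold higher with it in WT and at least 1.96-fold in p53-/- MEFs.

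Of 17 further thiol and peroxidase genes, 4 rose (23.5%) and 1 fell (5.88%) in WT MEFs, and 1 rose (5.88%) and 2 fell (11.8%) in p53-/- MEFs, with medians of −0.25 and 0.09. Gpx2 (2.38 and 0.81) and the mitochondrial glutaredoxin Glrx5 (1.81 and 0.41) rose in WT MEFs, and Pxdn, a matrix peroxidase, fell there (−2.04 and −0.80). For Gpx2, the signal of 228 without doxorubicin in p53-/- MEFs was under the brightest negative control of that array (250.1). Txnip, the inhibitor of thioredoxin, had 2.03 and 1.65 in WT MEFs and 0.805 and 4.56 in p53-/- MEFs and rose in p53-/- MEFs (2.50), against −0.31 in WT MEFs.

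Of 15 further quinone and carbonyl enzymes, 4 rose (26.7%) and 3 fell (20%) in WT MEFs, and 2 rose (13.3%) and 1 fell (6.67%) in p53-/- MEFs, with medians of 0.33 and −0.11. Dcxr, a carbonyl reductase of the p53-linked list too, had 1.24 and 12.2 in WT MEFs and 0.116 and 0.0658 in p53-/- MEFs, although its signal of 218 without doxorubicin in p53-/- MEFs did not reach the brightest negative control there. Aldh1a3 rose in both genotypes (1.83 and 1.80). Cbr2 fell in p53-/- MEFs (0.27 and −1.70), and Aldh1a7 rose there (0.37 and 1.48) from a signal of 94.5, also under that control.

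Of 12 measured enzymes that can pass single electrons to quinones or oxygen, 2 rose (16.7%) and 3 fell (25%) in WT MEFs. Of the 12 measured in p53-/- MEFs, 11 of them the same genes, 0 rose and 0 fell. The medians were 0.18 in WT and 0.11 in p53-/- MEFs. Cyba, a subunit of the NADPH oxidases, had 20.9 and 43.3 in WT MEFs and 16.6 and 13.5 in p53-/- MEFs. The cytochrome b5 reductases Cyb5r1 (−1.37 and −0.68) and Cyb5r2 (−2.90) fell in WT MEFs, and Cyb5r2 was at least 5.16-fold lower with doxorubicin in p53-/- MEFs, where the treated array was not well above background. The other gene that fell in WT MEFs was Mtrr, a flavoprotein, at a signal of 74.1 with doxorubicin that was under the brightest negative control (77.5). Genes not well above background without doxorubicin also had bounds past 2-fold. Xdh, xanthine dehydrogenase, was at least 2.5-fold higher with doxorubicin in WT and at least 2.61-fold in p53-/- MEFs, and Duox1, a dual oxidase, at least 6.88-fold in WT MEFs.

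Of 14 further iron, heme and metal genes, 0 rose and 1 fell (7.14%) in WT MEFs, and 1 rose (7.14%) and 1 fell (7.14%) in p53-/- MEFs, with medians of 0.14 and 0.02. Cp, the ferroxidase ceruloplasmin, had 0.238 and 0.0848 in WT MEFs and 0.226 and 0.589 in p53-/- MEFs. The zinc importer Slc39a14 had 1.32 and 2.01 in WT MEFs and 1.16 and 0.475 in p53-/- MEFs. Slc40a1, the iron exporter ferroportin (0.997 and 0.42), and Blvra, a biliverdin reductase (−0.98 and −0.09), stayed under 2-fold. Hamp, which codes for the iron hormone hepcidin, was at least 3.58-fold higher with doxorubicin in p53-/- MEFs, from a signal not well above background.

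Of 8 antioxidant and metabolic genes linked to p53, 4 rose (50%) and 1 fell (12.5%) in WT MEFs, and 1 rose (12.5%) and 1 fell (12.5%) in p53-/- MEFs, with medians of 1.24 and 0.03. Gls2, a glutaminase that supplies glutamate for glutathione, had 0.160 and 1.70 in WT MEFs and 0.239 and 0.465 in p53-/- MEFs. Aldh4a1, of proline breakdown, had 2.57 and 11.3 in WT MEFs and 1.47 and 0.761 in p53-/- MEFs. Trp53inp1 rose in both genotypes (1.59 and 1.79) from levels far apart, with 5.19 and 15.7 in WT MEFs and 0.287 and 0.995 in p53-/- MEFs.

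As reference genes, 8 genes used for housekeeping were followed. With doxorubicin, log2 ratios in WT and p53-/- MEFs were 0.04 and −0.42 for Actb, −0.06 and −0.32 for Gapdh, 0.07 and −0.23 for Ppia and 0.06 and −0.25 for Rplp0. They were −0.09 and 0.40 for Tbp, −0.57 and 0.56 for Pgk1 and 1.13 and 0.24 for Hprt. Hprt was past 2-fold in WT MEFs. The median of the 8 was 0.05 in WT and −0.14 in p53-/- MEFs, beside 0.30 and 0.45 for the 39 genes.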

How the data were processed

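One array per condition was measured for WT and p53-/- MEFs without and with doxorubicin. The authors labeled RNA with Cy3 and extracted spot intensities with Agilent Feature Extraction (10.7.3.1). The deposited intensities are background-subtracted and detrended within each array and not normalized between arrays. The deposited flags (coded 0 or 1) show which spots were well above background, which were saturated and which were outliers. A deposited table of intensities for all arrays was equal to the processed intensities at all 44397 spots of each array, so its scale is linear and its values are not centred; its medians were 140, 149.9, 131 and 210.1 (untreated and treated WT, then untreated and treated p53-/- MEFs). The authors calculated fold changes with the Subio Platform, which are not used here.

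Outlier spots (162, 153, 145 and 168 of 43020 per array in the same order) were left out, and 0 spots were saturated. Log2 intensities were averaged over the spots of a probe, and each array was scaled by subtracting its 75th percentile over 39429 probes. For a gene with several probes, the one with the highest mean log2 intensity was used. A ratio needed a signal flagged well above background on each array of the comparison, a flag given to 57.5%, 62.9%, 56.9% and 58.4% of probes. The lowest signals so called were 56.7, 44.3, 57.9 and 87.1, and a bound ("at least") uses the higher of this signal and the dim probe's own. The number of arrays limits the precision. A value is said to have moved where it changed by more than the SD of repeat spots for a ratio (0.084) or for a difference of ratios (0.118) or, for a count, by more than 1.5 times.

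Of the 39 genes, 10 had several probes. Other genes were named through a RefSeq table (26003 probes by transcript accession, 3195 by symbol and 930 by synonym), and 9249 probes kept the name in the files. Positions of probes were taken from the files (mm9), where exon and UTR annotations were not analysed here. The 39 genes, the further lists and the settings were chosen with earlier results of these data known. Named genes were all 39, the genes of the label check and the reference genes, and of each further list at most the 4 with the largest doxorubicin ratio in either genotype, but the single values of 3 list genes are not reported here. Gstt2, Gsta2, Mtrr, Xdh, Duox1 and Hamp, and some marker genes such as Ptprc, Cd3e and Tek, fall outside this rule and were named after their values were seen.

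Alternatives were scaling to the array median or to 8 reference genes, quantile normalization, normexp background correction (limma, offset 50) on the deposited mean and local background intensities, comparing dim probes too, requiring signal well above background on all 4 arrays, averaging the probes of a gene, the deposited table, and thresholds of 1.5-fold and 3-fold. A filter that keeps signals brighter than the brightest of 153 negative controls (108, 77.5, 250.1 and 120) was chosen after seeing the data. A block for the slide was not possible with 1 slide. Only the main scaling, the ratios and the call of genes that rose or fell were tested on simulated arrays. The other steps were not tested in this way. Python 3.11.15 with numpy 2.4.6, pandas 2.3.3 and matplotlib 3.10.9, and R 4.3.3 with limma 3.58.1, were used, with no test.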

Additional observations from a re-analysis of the deposited data

Results flagged for a closer look

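Among the 39 genes and those that the naming rule took from the lists, 5 had a doxorubicin ratio of at least 1.5-fold in each genotype, up in one and down in the other. Of all 16513 genes measured in both comparisons, 2.87% did, and of the 39 genes 1 did (2.56%). With 1 array per condition, the difference between the genotypes was not tested for any of them. A further 4 genes of the lists, which the naming rule did not take, met the same condition (Sesn2, Slc11a2, Steap3 and Mtrr, the last of which is named in the report). Sod3 (extracellular superoxide dismutase) is the one among the 39 genes, with −2.47 (log2) in WT MEFs, 0.96 in p53-/- MEFs and a difference of −3.42. Dcxr (a carbonyl reductase) had 3.30 and −0.81, a difference of 4.11, with a signal under the brightest negative control in untreated p53-/- MEFs. Aldh4a1 (proline breakdown) had 2.14 and −0.95, a difference of 3.09. Slc39a14 (a zinc importer) had 0.61 and −1.28, a difference of 1.89. Cp (ceruloplasmin) had −1.49 and 1.38, a difference of −2.87, with its lowest signal of 154 in doxorubicin-treated WT MEFs.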

How the results depend on the processing

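Of the 12 calls among the 39 genes in WT MEFs, 9 were kept under the 6 other settings of scaling, background, probe and negative controls, and of the 6 in p53-/- MEFs, 3 were kept (Nqo1, Gsta4 and Gpx7). The deposited table and the other filters (3 settings) left the ratios of the 39 as they were by construction and say nothing of stability. No called gene changed sign. Of those under 2-fold, 6 in WT and 9 in p53-/- MEFs did, 5 and 8 of them under array-median scaling, which shifts all genes alike, and Aldh3a1 with averaged probes. Scaled to the array median, 4 genes fell in WT MEFs (10.3%, against 15.9% of all genes) and 2 rose in p53-/- MEFs (5.13%, against 5.63%), 5 were lower in untreated p53-/- than in WT MEFs (12.8%, against 3.03%), 2 rose in both genotypes (5.13%, against 2.36%), 0 rose in p53-/- MEFs alone (against 2.94%), 1 fell in both (2.56%, against 6.3%) and 0 fell in p53-/- MEFs alone (against 6.18%), 2 were lower in p53-/- MEFs at both treatments (5.13%, against 1.56%), and the medians of the 39 were 0.024 in WT and 0.147 in p53-/- MEFs. This scaling moved the median of all genes by the same amount, and the median of the 39 less that of all genes stayed at 0.29 and 0.44. Scaled to the reference genes, the median was 0.207 in WT MEFs and −0.161 for treated p53-/- over WT MEFs, where 2 genes were higher (5.13%, against 15.5%), and −0.197 with quantile normalization. The share of higher genes among all past 2-fold for untreated p53-/- over WT MEFs went from 45.1% to 55.7% with the reference genes. With normexp, or with only signals above the brightest negative control, 1 gene fell in WT MEFs (2.56%, against 8.45% of all genes, and 2.63%, against 10.5%), and the count for WT MEFs alone was also 1 (2.56%, against 6.01% and 7.68%). In those cases Slc7a11 was under 2-fold or not measured. At 1.5-fold, 15 genes rose and 5 fell in WT MEFs, 14 rose and 2 fell in p53-/- MEFs, 12 were lower in untreated p53-/- MEFs and 4 were higher in treated p53-/- than in treated WT MEFs. At 3-fold, 5 rose and 1 fell in WT MEFs, 1 rose and 0 fell in p53-/- MEFs and 0 were lower in untreated p53-/- MEFs. The median difference between the doxorubicin ratios was −0.092 with the reference genes, where that of all genes was −0.088, and 0.123 with normexp, against 0.009, and reached 0.091 with averaged probes. The other counts of the 39 genes at 2-fold or above 0 stayed within 1.5 times in these settings. The medians not given here moved by at most 0.072 in the 4 comparisons of arrays. No paired analysis was possible because each condition had 1 array, and for the same reason no replicate could be left out.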

Other observations

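Some genes of the further lists stood out although the naming rule did not take them, and they were chosen after their values were seen. Ephx1, microsomal epoxide hydrolase, had relative signals of 39.6 and 90.4 in WT MEFs and 2.52 and 4.37 in p53-/- MEFs, so both p53-/- arrays were far below both WT arrays, with log2 ratios of p53-/- over WT MEFs of −3.98 without and −4.37 with doxorubicin. Its doxorubicin log2 ratios were 1.19 and 0.80. Ccs, the copper chaperone of Sod1, had 7.09 and 20.6 in WT MEFs and 4.55 and 5.63 in p53-/- MEFs (log2 ratios 1.54 and 0.31), while Sod1 itself stayed under 2-fold. Msrb1, a methionine sulfoxide reductase, had 18.1 and 52.8 in WT MEFs and 10.2 and 16.6 in p53-/- MEFs (1.55 and 0.71).

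Probes that were well above background in doxorubicin-treated WT MEFs alone included Krt5, a basal keratin, at a signal of 951, at least 19.1-fold higher than without doxorubicin, and the globin gene Hba-a1, at a signal of 670.1 and at least 13.5-fold higher. The alpha class transferase Gsta1 was well above background on the doxorubicin-treated arrays of both genotypes and not on the untreated arrays, at least 3.94-fold higher in WT and 1.82-fold in p53-/- MEFs.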
